A study of Caenorhabditis elegans with 2 samples.

Results

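The microRNA genes of Caenorhabditis elegans were examined for sites of the transcription factor REF-1 in midembryos. They comprised all 261 genes with the microRNA biotype on the nuclear chromosomes in the Ensembl release 115 annotation of WBcel235 (ce11), out of 46890 nuclear genes of all biotypes. A gene was called bound when the summit of a peak lay between 1000 bp upstream of the gene start and 100 bp past the gene end. Members whose windows overlapped were also merged, which left 219 loci. The study was a chromatin immunoprecipitation followed by sequencing (ChIP-seq) of 1 group with 2 biological replicates. Both replicates were whole midembryos aged 3 hours, obtained by bleaching, of strain RW12224, whose endogenous ref-1 gene on chromosome II carries the CRISPR insertion st12224[ref-1::TY1::EGFP::3xFLAG]. The antibody recognised GFP. There was no second genotype, stage or treatment to compare, and each library averages over all cell types of the embryo. The control library named as possible in the labels was not analysed here.

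MicroRNAs are short RNAs cut from a hairpin precursor by the nucleases Drosha and Dicer. Loaded into an Argonaute protein, they pair through the seed, the bases near their 5′ end, with messenger RNAs and repress them. MicroRNAs with the same seed form a family and can share targets. REF-1 is a basic helix-loop-helix protein with a pair of such domains, and genes of its family respond to Notch signalling in the early embryo. In the worm embryo the mir-35 and mir-51 families are required for viability, and lin-4 and let-7 are known for timing the larval stages.

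In the conservative set of 675 peaks, 9 of the 261 microRNA genes were bound (3.45%, exact 95% interval 1.59 to 6.44%), through 7 summits at 7 of the 219 loci (3.2%, 1.29 to 6.47%). The bound genes were mir-51, mir-52, mir-54, mir-55, mir-56, mir-58a, mir-87, mir-260 and mir-1824. Of these, 5 carried the same seed, that of the mir-51 family, and 1 peak accounted for mir-54, mir-55 and mir-56 together. The mature sequences of all 6 mir-51 family members are printed because its peaks at mir-51 and mir-52 were the strongest of the 7. The peak at mir-54 was weak, and mir-53 was the unbound member. In each line the capitals mark bases 2 to 8, the seed, and coordinates refer to WBcel235.

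The family members were as follows.
mir-51 (chrIV:11026074-11026096, minus strand): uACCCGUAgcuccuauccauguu
mir-52 (chrIV:14034024-14034047, plus strand): cACCCGUAcauauguuuccgugcu
mir-53 (chrIV:11027653-11027676, minus strand): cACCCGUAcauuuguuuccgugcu
mir-54 (chrX:13145011-13145034, minus strand): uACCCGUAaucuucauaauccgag
mir-55 (chrX:13144842-13144864, minus strand): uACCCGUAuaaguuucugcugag
mir-56 (chrX:13144706-13144727, minus strand): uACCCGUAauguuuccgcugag

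The seed ACCCGUA stood on the 5′ arm of the hairpin in mir-51, mir-52 and mir-53 and on the 3′ arm in mir-54, mir-55 and mir-56. Mature mir-52 and mir-53 were identical at 23 of 24 positions. In the windows used, mir-52 was bound and mir-53 was not.

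Other bound genes had other seeds, shown here for mir-58a, mir-87 and mir-260 beside mir-80, the unbound relative of mir-58a.
mir-58a (chrIV:3233314-3233335, plus strand): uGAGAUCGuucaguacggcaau
mir-80 (chrIII:8865285-8865307, minus strand): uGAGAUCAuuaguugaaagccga
mir-87 (chrV:12038700-12038721, minus strand): gUGAGCAAaguuucaggugugc
mir-260 (chrII:3306302-3306321, plus strand): gUGAUGUCgaacucuuguag

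The seed of mir-58a, GAGAUCG, was found in no other member, and that of mir-80, GAGAUCA, differed from it in the last base and was carried by 6 genes. Of those 6 genes 0 were bound and 5 held a candidate, beside 3.45% and 70.1% of all 261 members. The genes mir-58b and mir-58c shared theirs.

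The peaks themselves are printed for the mir-51 family loci and for mir-58a, along the strand of the microRNA gene, with bases of the annotated hairpin in capitals. The mir-51, mir-52 and mir-54 lines show how far each peak reached into its hairpin, and the mir-58a line shows a peak that lay wholly upstream and was rich in pyrimidines.
mir-51 peak (chrIV:11026080-11026343, minus strand): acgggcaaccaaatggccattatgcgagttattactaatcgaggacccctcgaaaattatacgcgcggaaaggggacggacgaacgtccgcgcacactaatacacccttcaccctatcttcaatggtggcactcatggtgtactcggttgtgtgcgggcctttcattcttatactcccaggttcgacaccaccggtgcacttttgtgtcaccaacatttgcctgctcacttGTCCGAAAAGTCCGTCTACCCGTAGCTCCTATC
mir-52 peak (chrIV:14033876-14034132, plus strand): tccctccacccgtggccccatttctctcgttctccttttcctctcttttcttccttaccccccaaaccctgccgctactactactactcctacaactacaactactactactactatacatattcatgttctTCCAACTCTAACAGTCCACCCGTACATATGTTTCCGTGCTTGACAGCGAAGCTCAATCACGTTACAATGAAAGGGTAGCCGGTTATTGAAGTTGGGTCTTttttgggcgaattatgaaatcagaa
mir-54 peak (chrX:13144977-13145252, minus strand): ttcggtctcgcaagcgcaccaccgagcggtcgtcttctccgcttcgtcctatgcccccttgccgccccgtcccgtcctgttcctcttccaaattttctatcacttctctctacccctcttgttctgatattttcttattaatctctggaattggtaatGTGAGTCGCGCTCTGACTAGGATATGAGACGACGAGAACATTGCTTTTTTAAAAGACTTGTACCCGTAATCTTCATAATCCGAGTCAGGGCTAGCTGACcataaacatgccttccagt
mir-58a peak (chrIV:3232906-3233181, plus strand): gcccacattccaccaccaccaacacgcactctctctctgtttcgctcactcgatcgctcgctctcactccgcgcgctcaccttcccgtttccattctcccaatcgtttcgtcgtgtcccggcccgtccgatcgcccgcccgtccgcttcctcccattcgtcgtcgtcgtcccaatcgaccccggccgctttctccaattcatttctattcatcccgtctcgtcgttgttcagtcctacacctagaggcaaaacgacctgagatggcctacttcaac

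The mir-51 peak held 33 bases of the hairpin at its downstream end. The mir-52 and mir-54 peaks held 100 and 99 hairpin bases, the whole annotated gene in both. The mir-58a peak held 0.

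Each peak carries the authors' signal, on a scale that is not stated, and a score of up to 1000 that rises as the irreproducible discovery rate (IDR), the expected share of irreproducible peaks, falls. A score of 830 corresponds to a global IDR of 0.01, the threshold of the conservative set. Library depth is unknown, which limits what can be said of weak sites.

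The strongest microRNA peak lay at mir-51 (IV, 11026080 to 11026343). Its signal was 204 in replicate 1 and 244 in replicate 2, and 459 in the conservative set, where it ranked 7 of 675. The summit lay 99 bp upstream of the hairpin, outside protein-coding genes, and the nearest protein-coding start, that of hrg-5, was 2974 bp away. A noncoding gene, F36H1.17, is annotated over the summit. The peak was high in both replicates, with own-list ranks of 49 and 46.

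At mir-52 (IV, 14033876 to 14034132) the signal was 75.3 in replicate 1 and 149 in replicate 2, and 229.9 in the conservative set, rank 95. Replicate 2 was the higher, and this was the widest gap between replicates among the 7 peaks. The summit lay 15 bp inside the hairpin, the single summit of the 7 within a microRNA gene, and the nearest protein-coding start was 9757 bp away. A noncoding RNA gene is annotated on the opposite strand over the same position.

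The X chromosome cluster of mir-54, mir-55 and mir-56 had 1 peak (X, 13144977 to 13145252) with a signal of 31.4 in replicate 1 and 44.4 in replicate 2. Its conservative signal was 71.6, rank 615, and its score was 861, just above the threshold. The summit lay 21 bp upstream of mir-54, 191 bp upstream of mir-55 and 328 bp upstream of mir-56, in an intron of F09A5.3, which is transcribed from the opposite strand. It was the lowest score among the 7 peaks.

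For mir-53, the unbound family member on chromosome IV, 3 candidates lay in the window. The strongest had a signal of 43.96, 11.83 in the first and 28.86 in the second of the pair of inputs that were ranked together, and a score of 57, far under the threshold. mir-53 (IV, 11027593 to 11027691) lies upstream of mir-51 (IV, 11026013 to 11026112) on the same strand. The summit of the mir-51 peak lay between these genes, past the downstream end of the mir-53 window. With these windows the family had 3 bound loci of 4, with signals of 459, 229.9 and 71.6.

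The peak upstream of mir-58a (IV, 3232906 to 3233181) had a signal of 52.1 in replicate 1 and 57.9 in replicate 2, and 107 in the conservative set, rank 317. mir-58 is an abundant worm microRNA related to bantam of Drosophila. Its summit lay 210 bp upstream of the hairpin in an intron of Y67D8A.2, on the same strand, and the start of that gene was 3807 bp away. The values of the replicates were close to each other.

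The peak upstream of mir-260 (II, 3305701 to 3305976) had a signal of 44.4 in replicate 1 and 48.9 in replicate 2, and 89.0 in the conservative set, rank 426. The summit was the farthest from its gene, 395 bp upstream. Of the 31-base words in this peak, 65.4% occurred once in the genome, against 100% in each of the other 6 peaks, so part of its sequence is repeated elsewhere. Whether reads from copies contributed to it was not tested.

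At mir-1824 (I, 13513740 to 13514015) the signal was 37.1 in replicate 1 and 42.7 in replicate 2, and 81.7 in the conservative set, rank 504. The summit lay 77 bp upstream of the hairpin, in an intron of Y87G2A.18 on the opposite strand, and also in the promoter window of Y87G2A.1. The nearest protein-coding start, that of Y87G2A.18, was 412 bp away. The assignment of this peak to the microRNA gene or to a protein-coding neighbour cannot be told apart by position.

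The peak upstream of mir-87 (V, 12038844 to 12039119) had the lowest conservative signal, 71.4, rank 618. Its signals were 41.1 in replicate 1 and 42.1 in replicate 2, the closest pair of the 7, and its score was 1000. The summit lay 201 bp upstream of the hairpin in an intron of kup-1 on the same strand. A noncoding gene, F10C2.11, is also annotated over the summit. In the replicates' own ranked lists the scores of the mir-87 peak were 174 and 30, under the threshold. The peaks of mir-260 (702 and 726), mir-1824 (348 and 134) and mir-54 (378 and 610) were under it there too, while mir-51, mir-52 and mir-58a scored 1000 in both.

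Across the 7 peaks the median offset was 99 bp upstream of the gene start. In all, 6 summits lay upstream and 1 inside a hairpin, 6 lay within 250 bp of the gene start, and 0 lay in exons of protein-coding genes. None lay within 100 bp of a tRNA, snoRNA or snRNA gene, the classes that hold 279 of the 675 summits, and the smallest distance to one was 20147 bp.

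**Figure D1:**
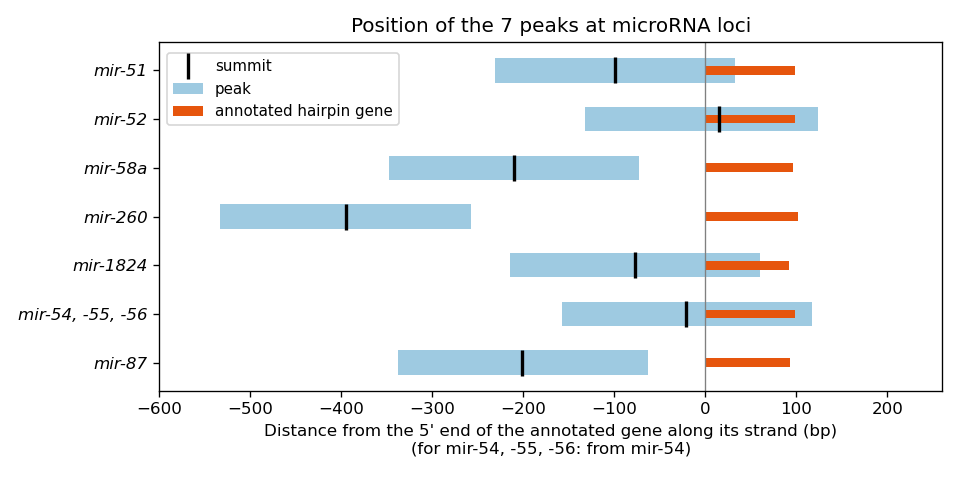
Position of the 7 conservative peaks (blue bars), their summits (black ticks) and the annotated hairpin genes (orange bars), as distance in bp from the 5′ end of the gene along its strand. The mir-52 summit lies 15 bp inside the hairpin and the other 6 lie upstream, the farthest at 395 bp for mir-260.

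The replicates' own thresholded sets, with 344 and 405 peaks, each held summits at 3 members (1.15%, exact 95% interval 0.238 to 3.32%). They were mir-51, mir-52 and mir-58a in both, and all 3 lie on chromosome IV. In the window from 1000 bp before to 200 bp after the gene start, 0.591% of protein-coding genes held a summit of the own set of replicate 1 and 0.841% one of replicate 2. The second set called on the pair, with 653 peaks, held 9 members (3.45%), against 1.28% of protein-coding genes in the same start window. The member counts used the window up to 100 bp past the gene end, unlike these protein-coding shares. The second set shared 8 members with the conservative set, lacked mir-87 and added mir-4936, so 10 members were bound in at least 1 set.

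**Figure D2:**
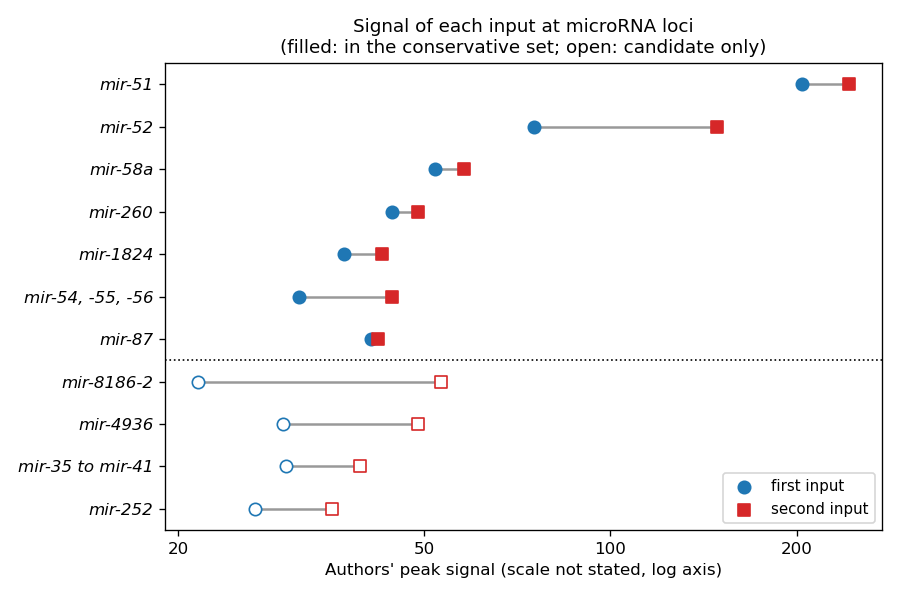
The authors' signal (log axis, scale not stated) in the first (circles) and second (squares) input at the 7 bound loci (filled) and at the 4 strongest candidate loci without a conservative peak (open). At the bound loci the inputs are replicates 1 and 2. The second value is the higher at all 11 loci, and the pair lies widest apart at mir-52 among bound loci and at mir-8186-2 among the others.

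The share of bound microRNA genes was set beside other gene classes in the same window. Of protein-coding genes 2.68% held a conservative summit, and of all nuclear genes other than microRNA genes 2.62%. The share was 39.7% for tRNA genes, 17.3% for snoRNA genes, 9.3% for snRNA genes and 0.332% for piRNA genes. In this window the microRNA share of 3.45% was near that of protein-coding genes, whose 2.68% lies inside the microRNA interval. It was well under that of tRNA genes. Because the window spans the whole gene and protein-coding genes are long, the start window was also used. There 1.29% of protein-coding genes were bound, or 0.956% by summits away from tRNA, snoRNA and snRNA genes, against the same 9 microRNA genes (3.45%). Both protein-coding shares lie under the microRNA interval there, 1.59 to 6.44%, which covers counting error only. Over merged loci, in the whole-gene window, the interval began lower, at 1.29%. Neighbouring members share peaks and are not independent, and no test was made.

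The merged microRNA windows covered 277 kb, 0.276% of the nuclear genome. They held 25.3 summits per Mb, against 6.73 per Mb genome-wide and 3.95 per Mb for summits away from the tRNA, snoRNA and snRNA classes. The first density rests on 7 summits. It covers stretches mostly near gene starts, while the other densities cover all nuclear sequence, and no density over like windows was taken. The median signal of the 7 peaks was 89.0, from 71.4 to 459, beside 102 over all conservative peaks and 87.1 over those away from the 3 RNA classes.

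**Figure D3:**
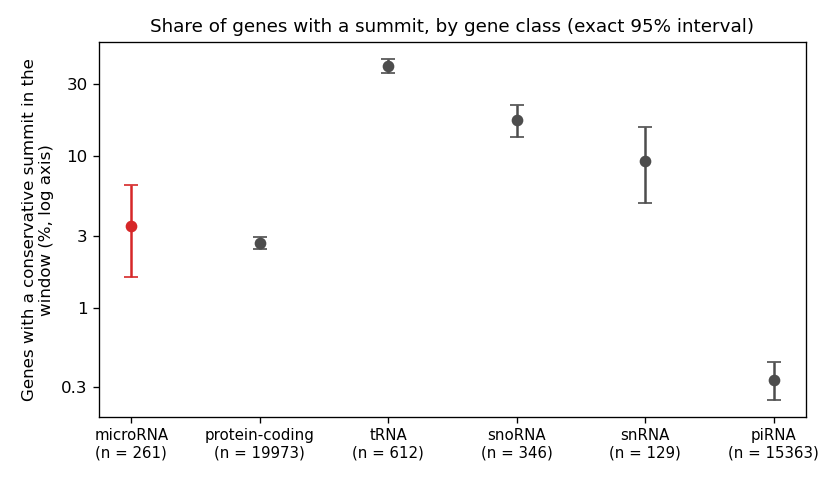
Percent of genes of each class with a conservative summit between 1000 bp upstream of the start and 100 bp past the end (log axis), with exact 95% binomial intervals that cover counting error only. MicroRNA genes (3.45%) lie near protein-coding genes (2.68%), under tRNA genes (39.7%) and above piRNA genes (0.332%). The window spans the whole gene, and in the start window, not drawn, the protein-coding share was 1.29%.

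By genomic setting, 4 of 32 members inside a protein-coding gene on the opposite strand were bound (12.5%, exact 95% interval 3.51 to 29.0%), 3 of them through the shared mir-54 peak. Of members inside a gene on the same strand 2 of 74 were bound (2.7%, 0.329 to 9.42%). Outside protein-coding genes 3 of 155 were bound (1.94%, 0.401 to 5.55%). The intervals overlap. Chromosomes IV and X held 3 bound members each, of 50 and 74, and chromosome III held 0 of 27. Chromosomes I, II and V held 1 each.

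Under the threshold, the ranked list of 72151 candidates covered most members. In all, 183 of 261 had a candidate summit in the window (70.1%, exact 95% interval 64.2 to 75.6%), 84 had 2 or more, and 78 had none. A candidate lay in the start window of 56.9% of protein-coding genes and in the window of 21.0% of piRNA genes, so a candidate alone says little. Candidate density was 911 per Mb in microRNA windows and 720 per Mb genome-wide, again over unlike stretches. The strongest candidate of each member had a median signal of 38.5 (quartiles 29.4 and 49.9), beside 28.5 over all candidates, where the best of several per gene favours higher values. In each replicate's own ranked list 149 members had a candidate, and 110 had one in both.

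By score, the members nearest under the threshold were mir-4936 (805), the mir-35 cluster (743), mir-4812 (660), mir-46 (568) and mir-252 (545). At mir-4936 (candidate III, 3249120 to 3249395) the signal was 29.57 in the first input and 48.86 in the second, and 78.06 in the ranked list. Its score of 805 fell just short of 830, and it passed in the second set called on the pair. At mir-4812 (candidate X, 15242687 to 15242962) the signals were 27.68 and 40.55, 63.49 in the ranked list, and the second ranked list gave it a score of 721. At mir-46 (candidate III, 13660270 to 13660545) the inputs were near each other, at 30.23 and 31.49, and the second list gave a score of 299. By signal, the strongest unbound member was mir-8186-2 (candidate II, 18874 to 19149), with 21.51 in the first input, 53.22 in the second and 80.12 in the ranked list. Its score was only 292, and the second input stood far above the first.

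A stronger candidate lay at the edge of the mir-249 window and was in none of the 4 thresholded sets, although its score was 1000 in all 4 ranked lists. Its signal was 66.3 in the own list of replicate 1, 89.4 in that of replicate 2 and 146 in the ranked list of the pair (X, 3007404 to 3007679). These values are above those of mir-58a in both replicates. The summit lay 923 bp upstream of mir-249 in replicate 2, inside the window, and 1009 bp and 1006 bp upstream in replicate 1 and the pair, just outside it. The authors' thresholding used a file of unstated content, and whether it removed this candidate was not tested. mir-249 was named after its values were seen.

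The mir-35 family, with the seed CACCGGG, had 0 of 8 genes bound, beside 9 of all 261 members (3.45%). mir-35 to mir-41 lie in 1 cluster and shared a candidate (II, 11537346 to 11537621) with a signal of 29.91 in the first and 39.33 in the second input. Its combined signal was 69.54, rank 1133 of 72151, with a score of 743. In the second ranked list of the pair its signal was the same and its rank was 1132, but its score was 49. Its summit lay 124 bp upstream of mir-35, at the head of the cluster. mir-42, which lies apart from the cluster, had a candidate of 12.71 and 42.16 with a score of 53.

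Members of the mir-35 cluster, with the seed in capitals, are shown beside the mir-51 family because both are needed in the embryo and only the latter had conservative peaks.
mir-35 (chrII:11537668-11537689, plus strand): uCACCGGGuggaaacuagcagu
mir-41 (chrII:11538368-11538389, plus strand): uCACCGGGugaaaaaucaccua

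At mir-252 the signal was 26.59 in the first and 35.47 in the second input, and 64.98 in the ranked list, with a score of 545 there and of 116 in the second list. Over all 252 candidate summits in member windows, 159 were higher in the second input, and the median ratio of the second to the first was 1.19, beside 1.14 over all candidates.

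**Figure D4:**
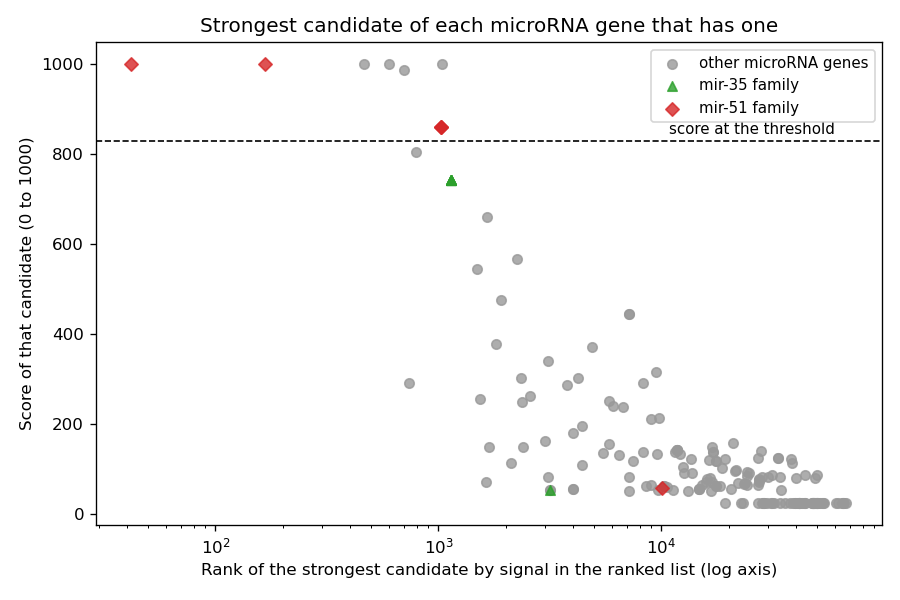
Score (0 to 1000) of the strongest candidate of each of the 183 members with one, against its rank by signal in the ranked list (log axis). The dashed line is the score of 830 at the threshold. mir-51 and mir-52 stand at ranks 42 and 167, the mir-54 cluster at 861 in score, and the mir-35 cluster at 743 under the line.

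Among microRNAs known for developmental timing, 0 of the 5 genes with the let-7 seed GAGGUAG were bound, beside 3.45% of all members. let-7 itself, whose annotated gene spans the primary transcript, had 2 candidates, the stronger with 27.68 (22.21 and 18.89 in the inputs, score 122). The summit of the stronger one lay 1537 bp past the gene start, inside the gene and downstream of the mature sequence. mir-84 had 48.58 with a score of 132, mir-241 had 34.6 with a score of 67 and mir-795 had 29.25 with a score of 54. mir-48 had none in this ranked list. Its strongest candidate elsewhere had a signal of 21.33 in the second ranked list, 25.01 in replicate 1 and 9.99 in replicate 2. Of the related mir-793 and mir-794, the former had 37.23 with a score of 101 and the latter had none. lin-4 had 38.47 with a score of 71, and mir-237, which shares its seed, had none.

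Of the relatives of mir-58a, mir-80 reached 49.66 (score 251) and mir-82 reached 49.26 (score 240). mir-81 had no candidate in this ranked list, but 1 with a signal of 17.79 in the own list of replicate 1. mir-2209a and mir-2209c shared a candidate of 39.89, and mir-2209b had 23.37. The seed of mir-87, UGAGCAA, was also that of mir-233 and mir-356a, of which neither was bound, and the seed of mir-1824 was also that of mir-34 and mir-4933, again without a conservative peak. Bound genes numbered 5 of 6 in the mir-51 group, 1 of 3 in the mir-87 group and 1 of 3 in the mir-1824 group. Over all members the share was 3.45%. With so few members bound, unbound genes beside a bound one say little about a seed group.

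The other single genes listed were unbound, as were 252 of the 261 members in all. mir-1, the muscle microRNA, had a candidate of 35.61 (score 97), and mir-124, of sensory neurons, had 44.47 (score 53). lsy-6, which sets the left-right asymmetry of a pair of taste neurons, had none. mir-71, known for its effect on life span, had 56.18, with 28.56 in the first and 26.11 in the second input and a score of 341. mir-34 had 30.42, mir-57 had 26.14, mir-228 had 38.78, mir-61 had 38.34 and mir-273 had 25.98, with scores of 138 or less.

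The share of 31-base words in the window that occurred once in the genome had a median of 100% with and without a candidate. As 100% is the ceiling, the medians could not show a difference. The lowest share was 18.9% among members with a candidate and 0% among those without. Fewer than 50% of words occurred once in 8 of the 183 members with a candidate and in 5 of the 78 without. This was so in 0 of the 9 bound members. An effect of repetition was not tested.

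The 7 summits were also described by sequence, within 100 bp on either side and on both strands. The letters CACGTG, the palindromic E-box, occurred near 0 of 7 summits and near 4.74% of all 675. CACGCG occurred near 0 of 7 and 12.6%, and CACGNG, which includes both, near 0 of 7 and 27.6%. CACNAG, an N-box form, occurred near 2 of 7, mir-1824 and mir-87, and near 31.9% of all. GAGAGA occurred near 1, the mir-54 summit, and near 22.7% of all. CCGCCC occurred near 2, mir-58a and the mir-54 summit, and near 12.3% of all. The 7 summits lie away from tRNA, snoRNA and snRNA genes, as do 396 of the 675. Over those 396 the shares were 6.82% for CACGTG, 10.4% for CACGCG and 25.3% for CACGNG. They were 22.2% for CACNAG, 18.9% for GAGAGA and 12.6% for CCGCCC.

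The GC content around the 7 summits had a median of 48.8%, from 37.8% at mir-1824 to 59.7% at mir-58a and mir-87, beside 46.3% over all conservative summits. Pyrimidines, the bases C and T, were counted on whichever strand held more. Their median share was 61.7% at the 7 summits, 55.2% over all 675 and 55.7% over the 396 away from the 3 RNA classes. At mir-58a the share was 73.1%, a level reached by 6 of the 675 summits (0.889%), at mir-87 it was 68.2% and at mir-54 65.2%. It was 61.7% at mir-260, 59.2% at mir-52, 56.2% at mir-51 and 53.2% at mir-1824, the last under the median of all summits. The strand with more pyrimidines was that of the microRNA gene, as in the printed mir-58a peak, at all but mir-260. There the gene strand held 38.3%. This measure was chosen after the sequences had been seen.

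Genes of the microRNA pathway were examined at their promoters, from 1000 bp upstream to 200 bp downstream of a transcript start. Of 30 listed genes of processing, silencing and classical targets, 29 were found by name and 2 were bound, beside 284 of 19973 protein-coding genes (1.42%). ain-1 encodes the GW182-type partner of Argonaute (X, 16612408 to 16612683). Its signal was 44.05 in the first input and 38.48 in the second, 88.4 in the conservative set, with a score of 984. vig-1 encodes a protein of the silencing complex (II, 1320431 to 1320706). Its signals were 33.97 and 41.66, and 79.1 in the conservative set, with a score of 910.

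The nuclease genes drsh-1 and dcr-1 and the Argonaute genes alg-1 and alg-2 were unbound. The strongest of their candidates was at alg-2, with 42.48 and 28.39 in the inputs and a score of 524, followed by alg-1 with 27.24 and 25.08 and a score of 298. drsh-1 reached a score of 95 and dcr-1 one of 25. Of the targets of lin-4 and let-7, hbl-1 reached a score of 469, lin-14 one of 75, lin-28 one of 65 and lin-41 one of 25. pash-1, the partner of Drosha, was the single listed gene without a candidate.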

How the data were processed

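The deposited files are peak lists on ce11, made by the authors from both replicates, per the file headers and accompanying notes. The sources used here do not give the aligner, peak caller or library depth. The authors' deposited score, up to 1000, follows the −log10 of the global IDR in the deposited ranked lists, and the thresholded sets hold peaks of score 830 or more. The deposited signal is the authors' value on an unstated scale, used only within a list, for description and ranking. Of the 855 candidates at that score, 180 were missing from the conservative set, and 0 of these had a summit in a member window. In the own list of replicate 2, 160 of 565 were missing from its set, 1 of them in the window of mir-249. In the ranked list of 72151 candidates the first input was identical with an entry of replicate 1 for 39887 and with one of replicate 2 for 0. The second was identical with an entry of replicate 2 for 39929 and with one of replicate 1 for 0. The input of a candidate without such an entry is called first or second only.

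Summits were assigned with Python 3.11.15, numpy 2.4.6 and pandas 2.3.3, exact intervals were computed with scipy 1.17.1, and plots were drawn with matplotlib 3.10.9. Intervals cover counting error only. Assignment was tested on simulated summits. Gene models came from Ensembl release 115. 1 member named there by a microRNA accession was matched to let-7 in RefSeq through its WormBase identifier. Sequences were read from the RefSeq genome of WBcel235 at the annotated positions, and 260 members had a mature form. The members, families, pathway list and motifs were chosen with earlier results of these data known. Genes named were all bound members, the 10 unbound ones with the best candidates, listed families and single genes, members bound in another set, and bound pathway genes. Genes sharing a seed with a named member, other pathway genes, mir-46, mir-55b, mir-249, mir-4812, mir-2215 and mir-59 were named after their values were seen. Of the listed names, mir-1834 and ntl-1 were not matched. The replicates are biological by label.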

Additional observations from a re-analysis of the deposited data

How the results depend on the processing

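The count of 9 bound members was 9 in the second set called on the pair, with a 500 bp upstream window, with summits in protein-coding exons left out, with summits within 100 bp or 500 bp of a tRNA, snoRNA or snRNA gene left out, and with overlapping entries left out. It was 7 as loci and with a 250 bp window, 10 by overlap of the peak by at least 1 bp, which added mir-55b, and 11 with a 2000 bp window, which added mir-2215 and mir-59. It moved to 3 in the own set of either replicate (range 3 to 3), to 2 at a global IDR of 0.001 (mir-51 and mir-52) and to 4 with a 100 bp window (mir-51, mir-52, mir-54 and mir-1824). The median offset of −99 bp ranged from −90 to −85 in the own sets, where fewer peaks passed. The median signal of 89 was the same in the second set. Members with a candidate numbered 171 in the second ranked list and 155 with a 500 bp window. The pathway count of 2 moved to 1 in the second set, which held ain-1. Within 50 bp of the summit, CACNAG occurred near 0 and CCGCCC near 1 of the 7. No paired analysis was possible because the labels give 1 group. Library depth is unknown, so a member without a candidate may be under the detection limit.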

Other observations

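Among the larger seed groups, the 6 genes of the mir-8187 group, which includes mir-72, mir-73, mir-74 and mir-266, had 0 bound and 6 with a candidate, with a highest signal of 46.0. The 5 genes of the mir-229 group, which includes mir-63 to mir-66, had 0 bound and 4 with a candidate, with a highest signal of 42.3. These groups and the genes named below were chosen after their values were seen. Over all 261 members, 3.45% were bound and 70.1% had a candidate. In all, 374 seeds were annotated, 6 of them in 5 or more members.

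Candidate summits within 100 bp of a tRNA, snoRNA or snRNA gene numbered 3 of 252. They lay 98 bp from such a gene at mir-5546 (signal 50.21, score 136), 24 bp at mir-77 (30.75, score 25) and 0 bp at mir-353 (26.96, score 25).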
